A study of Mus musculus with 60 samples.

Results

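The receptors and ligands of platelet-derived growth factor (PDGF) were examined in single PyMT-Bo1 tumor cells from mouse bone. The genes were taken by name and comprise the receptors Pdgfra and Pdgfrb and the ligands Pdgfa, Pdgfb and Pdgfc, which are 5 of the 47729 mouse genes in the count table. The PyMT-Bo1 line derives from a mouse mammary tumor and carries luciferase (Luc2), mApple, eGFP and polyoma middle T antigen transgenes. Before intracardiac injection into wild-type C57BL6 mice the cells received the membrane dye Vybrant DiD, which is diluted when cells divide. Femur and tibia of 5 mice were pooled, and 32 cells of high DiD intensity (DiD+, called dormant by the study) and 28 cells of low intensity (DiD-, called proliferative) were sequenced one by one. Both groups thus share the tumor line, the dye, the route of injection and the host, and the labels part them by DiD intensity. No label ties a cell to a mouse. Each group was therefore treated as 1 sample, no test between groups was possible, and the differences below have no replicate check in these data. Apart from these data, the study reported Pdgfrb as higher in DiD+ than in DiD- cells by qRT-PCR on cells sorted from bone and lung.

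PDGFs are secreted dimers that bind receptor tyrosine kinases and drive the growth and migration of mesenchymal cells. The A and C chains bind mainly the alpha receptor, encoded by Pdgfra, and the B chain binds both the alpha receptor and the beta receptor, encoded by Pdgfrb. In most tissues the ligands are made by epithelial cells, endothelial cells, platelets or macrophages, while the receptors mark fibroblasts and the mural cells of vessels. In bone marrow both receptors are carried by mesenchymal stromal cells. For that reason the level and ratio of each member are given with and without the cells that held 10 or more counts of Col1a1, Col1a2, Dcn or Lum, genes of collagen I and of small matrix proteoglycans typical of stromal cells.

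The identity of the cells was checked first. Krt8, a keratin of simple epithelia, had at least 10 counts in 32 of 32 DiD+ and 28 of 28 DiD- cells, and a transgene had a count in 31 and 28 cells, respectively. Krt18, its partner keratin, reached 10 counts in 29 of 32 DiD+ and in all 28 DiD- cells. Both keratins were lower in DiD+ cells, with Krt8 at 1831 CPM against 3395 CPM in DiD- cells (log2 ratio -0.89) and Krt18 at 728 against 1578 CPM (-1.11). Epcam and Krt19, other epithelial markers, had no count in any cell. Totals over mouse genes ran from 2276789 to 7794219 per DiD+ cell and from 2624405 to 6199108 per DiD- cell. A gene with no count in a group may hold up to 0.0205 CPM (counts per 1000000 counts on mouse genes) in DiD+ cells against 0.0251 CPM in DiD- cells, the level of 3 counts over the group. Intervals of summed levels below are exact at 95% and cover counting error only. The reads carry no molecular identifiers, so these limits refer to reads rather than molecules. Intervals of log2 ratios were formed by crossing the limits of the groups, and are not exact at 95%. Those of shares of cells are exact at 95% and take cells as the unit. The intervals of sums and ratios do not cover the spread between cells, which was far wider.

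The 4 stromal genes picked out 8 cells, called stromal-marker cells here, of which 7 were DiD+ (cells 18, 29, 31, 41, 68, 76 and 80, by the numbers in their labels) and 1 was DiD- (cell 78). Col1a1 was present in cells 29, 31 and 41 with 49, 193 and 23 counts. Dcn, which encodes decorin, was present in cells 31, 68, 76 and 80 with 108, 49, 210 and 157 counts. Col1a2 was present in cells 18 and 78 with 63 and 40 counts, and Lum had no count in any cell. The limit of 10 counts divided the cells cleanly, as 50 cells had no count of the 4 genes and the other 2 (cells 44 and 84) had 1 count each, whereas the lowest cell above the limit, cell 41, had 23. Cells under the limit are not free of other stromal transcripts, as up to 4 of 8 further listed stromal markers reached 10 counts in single cells of both groups. These 8 cells also carried tumor cell transcripts. Their Luc2 counts ranged from 97 in cell 76 to 597 in cell 41, and their Krt8 counts from 572 in cell 31 to 15318 in cell 18. Krt18 was uneven among them. It was absent from cell 68, and cells 41 and 31 held only 2 and 34 counts of it, respectively. The rest of the 8 ranged from 274 (cell 80) to 6602 (cell 18).

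In every cell at least 1 of the 3 ligands had 10 or more counts, whereas the receptors were found in part of the cells. Levels of different genes were compared per kilobase of merged exons. In DiD+ cells Pdgfc stood highest with 25.6 CPM per kb, followed by Pdgfa with 21.7, Pdgfrb with 10.6, Pdgfb with 3.59 and Pdgfra with 1.00. In DiD- cells the order of the first pair was reversed, with Pdgfa at 29.6 CPM per kb and Pdgfc at 13.6, and Pdgfrb (3.79), Pdgfb (2.45) and Pdgfra (0.690) came next. Neighbors in this order overlapped widely from cell to cell. Pdgfc per kb exceeded Pdgfa in 18 of 32 DiD+ cells and in 9 of 28 DiD- cells. Pdgfa exceeded Pdgfrb in 22 DiD+ and 24 DiD- cells. Between Pdgfb and Pdgfra, Pdgfb was higher in 8 and Pdgfra in 6 of the DiD+ cells, and the remaining 18 had neither.

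**Figure D1:**
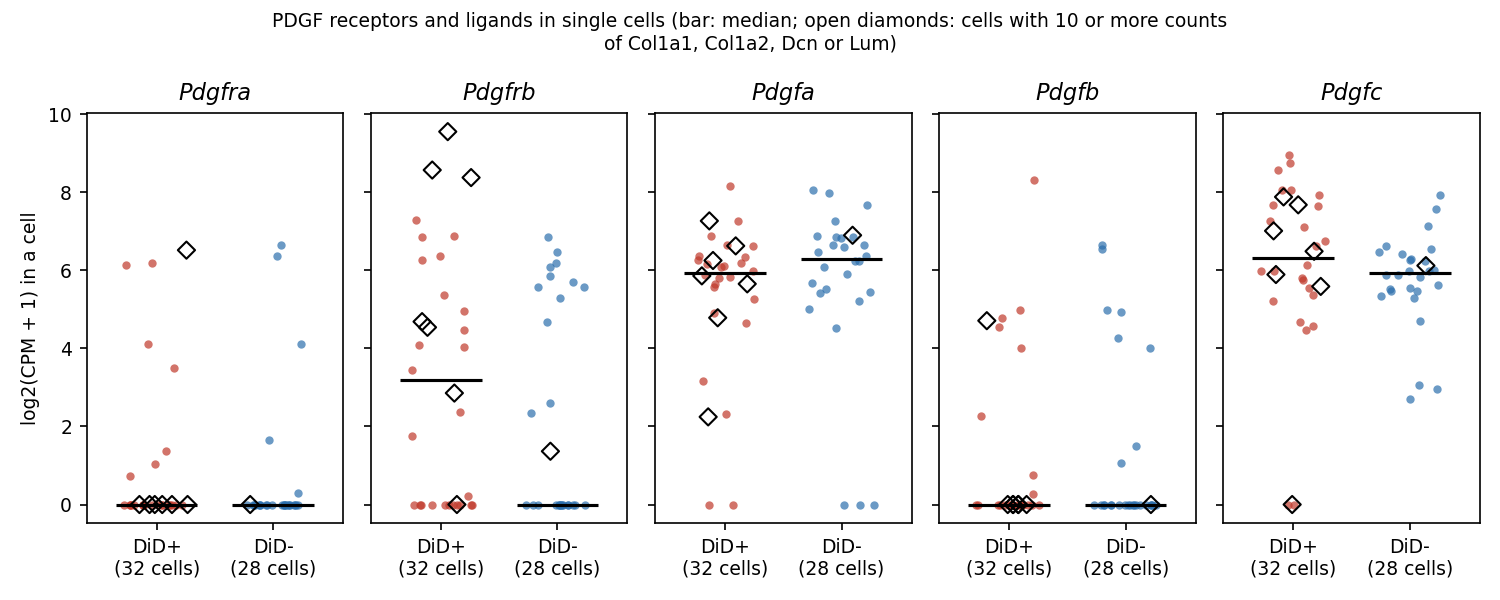
Level of each gene in each cell as log2(CPM + 1), with DiD+ cells in red, DiD- cells in blue, the median as a bar and the 8 stromal-marker cells as open diamonds. Pdgfa and Pdgfc fill most cells of both groups, Pdgfra and Pdgfb lie at 0 in most, and the highest 3 Pdgfrb values of the DiD+ group are stromal-marker cells.

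Pdgfrb (ENSMUSG00000024620, chromosome 18, 61045150 to 61085061, plus strand, GRCm38) encodes the beta receptor. It summed to 58.0 CPM (interval 56.8 to 59.3) in DiD+ cells against 20.8 CPM (19.96 to 21.6) in DiD- cells, which makes a log2 ratio of 1.44 (1.35 to 1.52). The level per cell ran from 0 over a median of 8.09 to 748 CPM in DiD+ cells, and from 0 over a median of 0 to 114 CPM in DiD- cells. The groups overlapped, and 6 DiD+ cells and 1 DiD- cell exceeded 100 CPM. At least 1 count was present in 20 of 32 DiD+ cells (62.5%, interval 43.7% to 78.9%) and 13 of 28 DiD- cells (46.4%, 27.5% to 66.1%). These intervals take cells as the unit and cannot serve to compare the groups. Pdgfrb alone, 1 of the 5 genes, was at least 2-fold higher in DiD+ cells, beside 12.1% of the 12432 genes that reached 1 CPM in either group. None of the 5 was at least 2-fold lower, beside 4.86% of those genes.

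Much of the DiD+ sum of Pdgfrb came from few cells. Cells 41, 31 and 29 held 1881, 1704 and 1301 counts, together 57.6% of the 8476 counts in the group. They were at 378, 748 and 331 CPM, and the next DiD+ cell, cell 67, was at 156 CPM. The same 3 cells were the only ones with Col1a1. Of the 8 listed stromal markers that did not choose these cells, cell 31 had 5, cell 41 had 6 and cell 29 had 3 at 10 or more counts, and cell 29 also had 4 of 5 platelet markers. Dmp1, a gene of osteocytes named here after its values were seen, was at 29.4, 199 and 34.6 CPM in cells 41, 31 and 29. The highest Dmp1 level was in cell 70, under the stromal limit, at 815 CPM with Pdgfrb at 21.3 CPM. Cells 63, 42 and 30, also under the limit, had 61.6, 28.4 and 9.11 CPM of Dmp1. The log2 ratio of Dmp1 was 4.97, and 5.00 without stromal-marker cells. Of the other listed osteoblast markers, Alpl had 537 counts in 1 DiD+ cell, cell 29, and 308 counts in 1 DiD- cell, cell 32. Bglap had 29 counts in 2 DiD+ cells, and Sp7 and Ibsp had no count in any cell. Krt8 was at 368, 251 and 840 CPM in cells 41, 31 and 29, below the median of 2010 CPM in the 25 DiD+ cells under the stromal limit. The other 5 stromal-marker cells had less Pdgfrb than cells 41, 31 and 29: cells 80 and 68 were at 24.7 and 22.2 CPM, cells 76 and 78 at 6.23 and 1.57 CPM, and cell 18 had no count. The 7 DiD+ stromal-marker cells made up 21.9% of the cells and 18.3% of the mouse counts of their group, and held 59.9% of its Pdgfrb counts. What part host stromal RNA has in these values was not tested.

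Without the 8 stromal-marker cells, Pdgfrb was at 28.4 CPM (27.5 to 29.4) in 25 DiD+ cells against 21.4 CPM (20.6 to 22.3) in 27 DiD- cells, for a log2 ratio of 0.39 (0.29 to 0.50). The ratio ranged from 0.06, without cell 67, to 0.67, without the DiD- cell 79, when single cells were left out. Pdgfrb was still widely present, with a count in 14 of 25 DiD+ cells (56.0%) and 12 of 27 DiD- cells (44.4%), and its highest levels were 156 and 114 CPM. In these cells none of the 5 genes was at least 2-fold higher in DiD+ cells, beside 11.7% of 12411 genes, and none was at least 2-fold lower, beside 5.16%. With the stricter limit of 100 counts, which removes cells 31, 76 and 80 but keeps 29 and 41, the Pdgfrb ratio was 1.19.

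**Figure D2:**
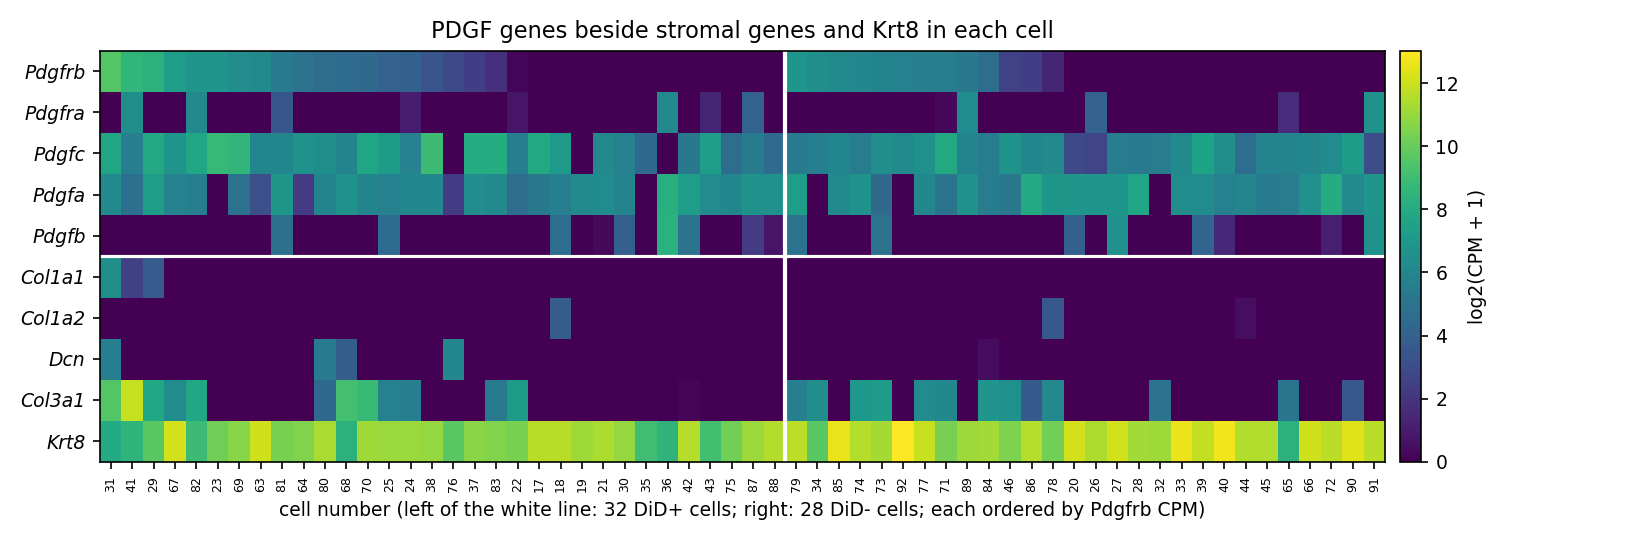
Each column is a cell, ordered by Pdgfrb within DiD+ (left) and DiD- (right), and color gives log2(CPM + 1) of the 5 PDGF genes above and of stromal genes and Krt8 below the white line. The 3 cells with Col1a1 (cells 31, 41 and 29) are the 3 highest for Pdgfrb, while many cells of both groups have Pdgfrb with none of Col1a1, Col1a2 and Dcn.

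The numbers in the labels form 2 runs, 17 to 46 and 63 to 92, whose meaning the labels do not give. In the first run Pdgfrb was at 64.7 CPM in 18 DiD+ against 8.17 CPM in 12 DiD- cells, giving a log2 ratio of 2.84, and in the second run at 48.5 CPM in 14 DiD+ against 31.2 CPM in 16 DiD- cells, a ratio of 0.62. Without stromal-marker cells the 2 ratios were 0.20 and 0.72. Of the DiD- cells, 2 of 12 in the first and 11 of 16 in the second run had a count of Pdgfrb, and of the DiD+ cells 9 of 18 and 11 of 14. The summed level of Pdgfrb was thus higher in DiD+ cells in both runs, though by different amounts, and the first run rested on few cells. Cells 41, 31 and 29 held 1881, 1704 and 1301 of its 5552 DiD+ counts, and cell 34 held 427 of its 442 DiD- counts. Among its DiD+ cells under the stromal limit, cell 23 held 436 counts and the next, cell 25, held 89. Whether the direction within a run holds without such cells was not tested.

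Pdgfra (ENSMUSG00000029231, chromosome 5, 75152292 to 75198215, plus strand), the gene of the alpha receptor, was sparse in both groups. Counts were present in 8 of 32 DiD+ cells (25%, interval 11.5% to 43.4%) and 5 of 28 DiD- cells (17.9%, 6.06% to 36.9%), and the median cell of either group had none. In DiD+ cells, 544, 450 and 357 counts in cells 82, 41 and 36 made up 92.1% of the sum. In DiD- cells, 368, 364 and 85 counts in cells 89, 91 and 26 made up 98.8%. The summed level was 10.04 CPM (9.54 to 10.6) in DiD+ cells against 6.92 CPM (6.46 to 7.41) in DiD- cells, which makes a log2 ratio of 0.48. This difference turned on single cells, since the ratio was -0.05 without cell 82 and 1.14 without cell 89 or cell 91. It was 2.04 in the first run of cell numbers and -0.08 in the second. Without stromal-marker cells the ratio was 0.22 (8.52 and 7.15 CPM), and it became -0.64 without cell 82, -0.27 without cell 36 and 0.89 without cell 89 or 91. With the mean of the cells' CPM, the mean of the BASiCS values or spike-in scaling in place of summed counts it was -0.10, -0.08 and -0.01, respectively. The median over all genes in these cells was -0.27 with spike-in scaling and 0.04 with summed CPM. Of the 3 highest DiD+ cells only cell 41 was a stromal-marker cell.

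Pdgfc (ENSMUSG00000028019, chromosome 3, 81036416 to 81214040, plus strand) encodes the C chain, a latent ligand that is activated by proteolysis. It was present in 29 of 32 DiD+ and all 28 DiD- cells, and summed to 130 CPM (129 to 132) in DiD+ cells against 69.5 CPM (67.97 to 70.96) in DiD- cells, for a log2 ratio of 0.90 (0.85 to 0.95). Per cell the level ran from 0 over a median of 79.1 to 492 CPM in DiD+ cells, and its DiD- range had a median of 59.9 and a highest value of 241 CPM. The bulk of the 2 groups overlapped, and they parted mainly at the upper end, where 14 DiD+ and 3 DiD- cells exceeded 100 CPM. Unlike the Pdgfrb sum, the Pdgfc sum was spread over many cells. Leaving out single cells moved the ratio only between 0.76, without cell 38, and 1.04, without the DiD- cell 71, and without the DiD- cell 39 it was 1.01. The stromal-marker cells held 14.6% of the DiD+ counts of Pdgfc, less than their 18.3% of all mouse counts, and without them the ratio was 0.96 (136 and 69.5 CPM). In the 2 runs of cell numbers the ratio was 1.17 and 0.67. Scaling by the ERCC spike-ins, RNAs added at a fixed amount, gave a ratio of 0.36, beside a median over all genes of -0.34 with that scaling and 0.04 with CPM.

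Pdgfa (ENSMUSG00000025856, chromosome 5, 138976014 to 138997370, minus strand), the gene of the A chain, alone had a lower sum in DiD+ cells. It was at 67.7 CPM (66.3 to 69.02) in DiD+ cells against 92.4 CPM (90.7 to 94.2) in DiD- cells, giving a log2 ratio of -0.44 (-0.50 to -0.39). Counts were present in 30 of 32 DiD+ and 25 of 28 DiD- cells. The median cell had 59.7 CPM in the DiD+ group and 77.8 CPM in the DiD- group, and the highest cells had 286 and 263 CPM, so that the groups overlapped over their whole range. The ratio lay between -0.62 and -0.34 when single cells were left out and was -0.42 without stromal-marker cells (68.3 and 91.6 CPM). It was -0.10 in the first run of cell numbers and -0.83 in the second. An antisense gene, 6330403L08Rik, shares exon sequence with Pdgfa and had 646 counts in all cells, and the library kit does not mark the strand, so reads of the pair cannot be told apart in the shared stretch.

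Pdgfb (ENSMUSG00000000489, chromosome 15, 79995874 to 80014977, minus strand) encodes the B chain, the main ligand of the beta receptor. It was present in 9 of 32 DiD+ and 8 of 28 DiD- cells, and the median cell had none. Cell 36 alone held 1579 of the 2180 DiD+ counts (72.4%), and was at 316 CPM, while the next DiD+ cell, cell 42, was at 30.6 CPM. In DiD- cells the highest levels were 98.6 CPM in cell 91 and 92.7 CPM in cell 27. The sums were 14.9 CPM (14.3 to 15.6) and 10.2 CPM (9.64 to 10.8), which makes a log2 ratio of 0.51, which turned to -1.09 without cell 36 and was 1.07 without cell 27. It was 1.01 in the first run, which holds cell 36, -1.83 in the second run, and -0.15 with spike-in scaling, beside a median over all genes of -0.34 with that scaling. Cell 36 was no stromal-marker cell, and also had the highest Pdgfa of the DiD+ cells (286 CPM), 71.5 CPM of Pdgfra, and no count of Pdgfrb or Pdgfc. Without stromal-marker cells the Pdgfb ratio was 0.66 (17.2 and 10.5 CPM), and it was -1.15 without cell 36, 1.22 without cell 27 and 1.07 without cell 91.

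**Figure D3:**
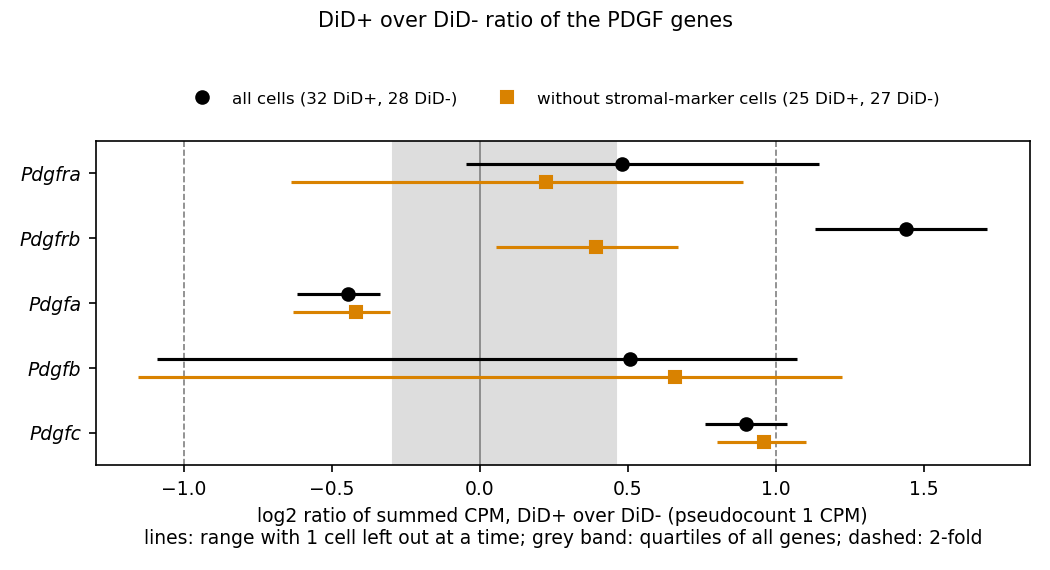
Log2 ratio of summed CPM, DiD+ over DiD-, for each gene in all cells (black circles) and without the 8 stromal-marker cells (orange squares), with lines for the range when 1 cell is left out at a time and a grey band for the quartiles of all genes. Pdgfrb moves from 1.44 to 0.39 without the stromal-marker cells, Pdgfc stays near 0.9, Pdgfa stays below 0, and the ranges of Pdgfra and Pdgfb cross 0.

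Since every cell had a ligand at 10 or more counts, cells differed in whether a receptor was present too. A receptor reached 10 counts in 21 of 32 DiD+ and 14 of 28 DiD- cells, and without stromal-marker cells in 15 of 25 and 14 of 27. In DiD+ cells 16 had Pdgfrb only, 2 Pdgfra only, and 3 (cells 41, 81 and 82) both, and in DiD- cells 11 had Pdgfrb only, 2 Pdgfra only and 1 (cell 89) both. Pdgfrb was thus found in 3 of 5 DiD+ cells with Pdgfra, beside 19 of all 32, and in 1 of 3 DiD- cells with Pdgfra, beside 12 of all 28. Pdgfrb and its ligand Pdgfb were found together in 2 DiD+ and 2 DiD- cells, whereas 17 and 10 cells had Pdgfrb without Pdgfb. Pdgfa and Pdgfc were both present in 27 DiD+ and 25 DiD- cells. In DiD+ cells 3 had Pdgfa only and 2 Pdgfc only, and in DiD- cells 3 had Pdgfc only. The 7 DiD+ and 6 DiD- cells with Pdgfb all had Pdgfa as well.

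Over all 60 cells, Spearman's rho between log2(CPM + 1) values was 0.39 for Pdgfrb and Pdgfc (Pearson's r 0.36), 0.38 for Pdgfa and Pdgfb (r 0.29), -0.31 for Pdgfrb and Pdgfb (r -0.22), and 0.00 for the 2 receptors (r 0.06). For Pdgfrb and Pdgfc rho was 0.46 within DiD+ and 0.15 within DiD- cells. These values describe cells that share the pooled bones and the library preparation, and they rest on many zeros.

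For each member the 5 genes with the highest rho were taken from 10388 genes with at least 10 counts in at least 10 cells, a minimum that Pdgfra did not reach. For Pdgfrb they were Col3a1, the gene of collagen III (rho 0.57), Prrx2, a mesenchymal homeobox gene (0.53), Sh3gl1 (0.52), Matr3 (0.52) and Trip11 (0.51). In the 52 cells left without the stromal-marker cells these values were 0.49, 0.42, 0.47, 0.68 and 0.49, so that Matr3, which encodes a nuclear matrix protein, then stood above Col3a1. Within the groups rho for Col3a1 was 0.57 in DiD+ and 0.61 in DiD- cells. Col3a1 was at 197 CPM in DiD+ cells against 28.3 CPM in DiD- cells, for a log2 ratio of 2.76, which became 0.71 without stromal-marker cells. Cell 41 alone held 18672 counts of Col3a1, and without it the ratio was 1.32. For Pdgfc they were Aldh1a1, an aldehyde dehydrogenase of retinoic acid synthesis (0.55), Isca1, Fbh1, Wls and Gm9747. Aldh1a1 had counts in 11 DiD+ and 0 DiD- cells, so the pooled rho also holds the difference between groups, and within DiD+ cells it was 0.66. Without the stromal-marker cells Gm9747 (0.61) and Wls (0.58) stood above Aldh1a1 (0.56). For Pdgfa the list held Nppb, the gene of a natriuretic peptide (0.55), Scx, Oaf, Sqle and Ezr. Nppb had counts in 2 DiD+ and 11 DiD- cells, and its rho was 0.39 within DiD+ and 0.66 within DiD- cells. For Pdgfb it held Abce1 (0.54), Btaf1, Hmga1, Pthlh and Slc35e4. Pthlh, which encodes parathyroid hormone-related protein, was lower in DiD+ cells by a log2 ratio of -2.21, and its rho was 0.67 within DiD+ and 0.28 within DiD- cells.

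The rest of the pathway was read from a list of 59 genes, of which 50 reached 1 CPM in either group. Of these 50, 3 were at least 2-fold higher in DiD+ cells and 1 was at least 2-fold lower, beside the 12.1% and 4.86% of all genes given above. Their median log2 ratio was 0.16, beside 0.04 over all genes, and 0.18 without stromal-marker cells. The fourth ligand, Pdgfd, had no count in any cell. Among the genes that process the ligands, Plat (tissue plasminogen activator, which cleaves the C chain) was at 137 CPM in DiD+ cells against 152 CPM in DiD- cells and Furin at 16.4 and 16.99 CPM. The log2 ratio of Plat was -0.15, and -0.46 without stromal-marker cells. Of the co-receptors, Lrp1 was at 276 and 212 CPM, and Nrp2 at 70.3 and 40.3 CPM, giving a log2 ratio of 0.79. Of the 19 signalling genes, Pik3cb, a catalytic subunit of PI3 kinase, was at 12.5 CPM in DiD+ cells against 35.3 CPM in DiD- cells, which makes a log2 ratio of -1.43 (-1.62 to -1.26 with 1 cell left out at a time). Counts of Pik3cb were found in 17 DiD+ and 16 DiD- cells, and its ratio became -1.32 without stromal-marker cells. Pik3r1, a regulatory subunit of the same kinase, was at 46.8 and 24.2 CPM, a ratio of 0.93.

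Of the 8 genes that end receptor signalling, Cblb, a ubiquitin ligase, was at 13.9 CPM in DiD+ cells against 5.98 CPM in DiD- cells, for a log2 ratio of 1.09 (0.91 to 1.37 with 1 cell left out), with counts in 18 and 13 cells. Gab1, an adaptor protein, was the second of the 3 higher genes, at 7.83 and 2.80 CPM in 9 and 2 cells. Its log2 ratio of 1.22 was 0.61 without cell 36, which is under 2-fold, and 2.16 without the DiD- cell 65. The third was Csf1r, a receptor of the same kinase family, at 51.5 and 0.837 CPM in 7 and 3 cells, with a log2 ratio of 4.84 that was 3.22 without cell 24. Csf1r marks macrophages, and 12 of the 13 listed macrophage markers were at least 2-fold higher in DiD+ cells. The 10 early response genes, which PDGF induces in fibroblasts, had a median log2 ratio of 0.09, and none was past 2-fold. Egr1 was at 1387 CPM in DiD+ cells against 1544 CPM in DiD- cells, Jun at 863 and 1054 CPM, and Myc at 101 and 66.8 CPM. Of the related growth factors, Vegfa was at 74.1 and 37.3 CPM (log2 ratio 0.97), and of its receptors Flt1 was at 18.7 and 29.6 CPM in 20 cells of either group, whereas Kdr had no count in any cell.

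**Figure D4:**
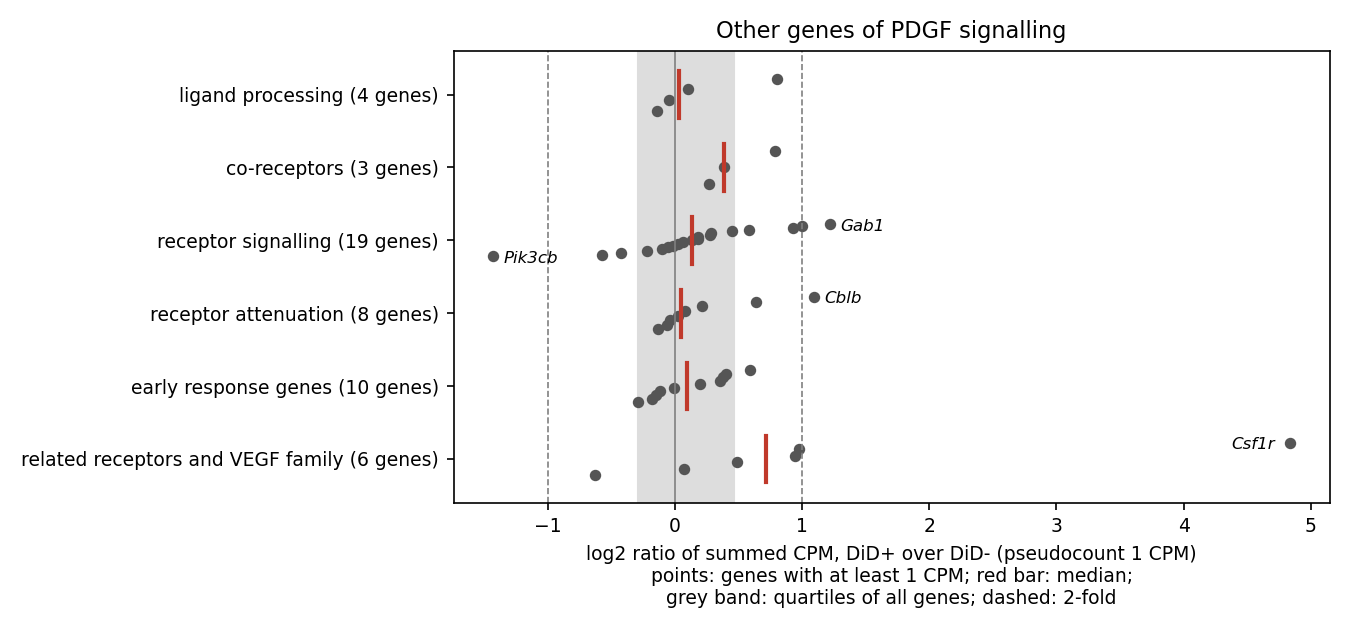
Log2 ratio of summed CPM, DiD+ over DiD-, for the 50 pathway genes that reached 1 CPM in either group, by role, with the median of each role as a red bar and the quartiles of all genes as a grey band. Csf1r, Gab1 and Cblb lie above the 2-fold line and Pik3cb below it, and most other genes lie within or near the grey band.

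Markers of other cells that carry PDGF genes were read beside these values. The 12 stromal markers summed to between 0.454 and 4101 CPM per DiD+ cell (median 114) and between 0 and 464 CPM per DiD- cell (median 138). Of the 8 that were not used to choose cells, 4 (Col3a1, Col5a2, Mmp2 and Fap) were at least 2-fold higher and 1 (Lepr) was at least 2-fold lower in DiD+ cells. Col5a2 and Fap had counts in 2 DiD+ cells each, and Lepr in 1 DiD- cell. Without cell 41 alone the log2 ratios were 1.32 for Col3a1, 0.02 for Col5a2, -0.50 for Mmp2 and 1.13 for Fap. Without the stromal-marker cells 6 of the 8 reached 1 CPM, of which 0 were at least 2-fold higher and 2 at least 2-fold lower. Lum had no count, and the levels of the other 3 genes that chose the cells are fixed by that choice. Of 9 mural markers, Cspg4, Kcnj8 and Abcc9 had no count in any cell, 3 reached 1 CPM, of which 0 were at least 2-fold higher and 1 was lower, and their sum reached at most 67.2 CPM in a DiD+ and 31.3 CPM in a DiD- cell. The 13 macrophage markers summed to between 0 and 19854 CPM per DiD+ cell (median 44.5) and between 0 and 1768 CPM per DiD- cell (median 24.5), and 6 DiD+ cells and 1 DiD- cell had at least 7 of them. In those 6 DiD+ cells Pdgfrb was between 0 and 15.4 CPM. Without the 7 cells the log2 ratios were 1.74 for Pdgfrb and 1.03 for Pdgfc, and without these and the stromal-marker cells 0.75 and 1.14. Of 5 platelet markers 3 reached 1 CPM and 2 (Pf4 and Gp1bb) were at least 2-fold higher in DiD+ cells. The log2 ratio of Pf4 fell from 3.24 to 0.12 without cell 24, and that of Gp1bb from 1.07 to 0.80 without cell 69. Without cell 29, the one with most platelet markers, the Pdgfrb ratio was 1.24. Of the 7 endothelial markers only Pecam1 reached 1 CPM, and it was lower in DiD+ cells (-1.30). Of 5 osteoblast and osteocyte markers 2 reached 1 CPM and 1 was at least 2-fold higher in DiD+ cells. This was Dmp1, at 30.4 CPM in DiD+ cells, where 8 had a count and cell 70 alone was at 815 CPM, and without a count in DiD- cells. Of 7 erythroid markers, 6 reached 1 CPM and all 6 were at least 2-fold higher in DiD+ cells, and their sum reached 174035 CPM in cell 30, which had no Pdgfrb. Per the study's methods, cells were enriched with beads against Thy1.1, a surface tag of the tumor cells, stained for CD45, Thy1.1 and dead cells, and sorted 1 per well, with CD45-positive cells left out. Such a sort is meant to leave out host cells, and the part of host RNA in the ratios of the PDGF genes was not tested further. Ptprc, the gene of CD45, was under 1 CPM in both groups. Its highest levels were 25.8 CPM in the DiD+ cell 21 and 6.91 CPM in the DiD- cell 84, both among the cells with at least 7 macrophage markers.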

How the data were processed

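The data comprised 60 single cells in 2 groups, taken from the labels as DiD intensity high (DiD+) or low (DiD-). Per the labels and the study's methods, cDNA was made with the SMARTer Ultra Low v4 kit, which does not mark the strand, and libraries with Nextera XT. The authors aligned reads with STAR to GRCm38/mm10 extended by spike-in and transgene sequences, and quantified genes with RSEM. The authors deposited the unnormalized estimated counts (RSEM expected counts) of 47729 mouse genes, 92 ERCC spike-ins and 4 transgenes. They were rounded to whole numbers here. A second deposited table, of signal normalized by the authors with BASiCS (14013 rows), served only as an alternative scaling. 0 columns of values were left unused.

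Within each group, counts were added up and divided by the total over mouse genes (CPM), and the log2 ratio was taken with a pseudocount of 1 CPM. Intervals are exact Poisson for sums and Clopper-Pearson for shares of cells. For log2 ratios the lower limit of each group was set against the upper limit of the other. A gene was compared if it reached 1 CPM in either group, and a ratio of 2-fold or more was counted. A group is 1 sample, so no p-value was computed, and genes are counted by size of the ratio alone. Nothing in the sources says how many mice gave cells to each group, and wells with more than 1 cell were not removed. Exon lengths and positions are from GENCODE vM21 (GRCm38), which may differ from the annotation the authors counted with.

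The members and gene lists were chosen with earlier results of these data known. Named genes are the 5 members, the 4 stromal genes, the 5 genes with the highest rho for each member, and pathway genes at least 2-fold apart that reached 10 CPM in either group and had counts in 10 or more cells of the higher group. Other genes named were chosen for their role or after their values were seen. Alternatives were the mean of the cells' CPM, the mean BASiCS value, spike-in, TMM and DESeq2 scaling, pseudocounts of 0.1 and 10 CPM, other limits for stromal genes, thinning to 2200000 counts, leaving out each cell, and leaving out cells with at least 7 of 13 macrophage markers, at least 3 of 5 platelet markers or no transgene count. The steps were tested on simulated data. Python 3.11.15, matplotlib 3.10.9, scipy 1.17.1, pandas 2.3.3 and numpy 2.4.6 were used, and edgeR 4.0.16 and DESeq2 1.42.0 in R 4.3.3 for scaling factors only.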

Additional observations from a re-analysis of the deposited data

How the results depend on the processing

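Each group is 1 sample, so these values describe the cells at hand. With all cells, 1 member was at least 2-fold higher in DiD+ cells. The count was 2 without macrophage-marker cells, 4 in cells 17 to 46 and 0 in cells 63 to 92, and between 1 and 2 with 1 cell left out, rising to 2 without the DiD- cell 27, 39, 71, 89 or 91. No member was 2-fold lower, except Pdgfb in cells 63 to 92 (1 member) and without cell 36 (range 0 to 1). Without stromal-marker cells, 0 members were 2-fold higher. This became 1 without macrophage-marker cells, 1 each with the stromal limit set at 2 of the 4 genes or at 100 counts, and 3 in cells 17 to 46, and ranged from 0 to 1 with 1 cell left out. The count of lower members was 1 in cells 63 to 92 and otherwise between 0 and 1. Pathway genes at least 2-fold higher numbered 3, but 6 with the mean of the cells' CPM, 7 with BASiCS values, 5 with a pseudocount of 0.1 CPM, and 1 each with 10 CPM or spike-in scaling. With spike-in scaling their median was -0.15, with the all-gene median at -0.34. The splits by cell number and the joint removal of stromal and macrophage cells were chosen after seeing the data. With the stromal-marker cells kept, or left out together with macrophage-marker cells, the other settings put the Pdgfrb ratio between 0.62 and 2.84, the Pdgfc ratio between 0.36 and 1.17 and the Pdgfa ratio between -0.88 and -0.10. Without stromal-marker cells these ranges were 0.20 to 1.19, 0.41 to 1.16 and -0.80 to -0.08. Apart from the cell subsets and limits themselves, the cause of these shifts was not tested. Shares of cells with a count stayed within their intervals after thinning. No paired analysis was possible because the labels give the groups no shared replicate numbers. Depth limits genes near 0.0251 CPM, and the sparse members are limited by the number of cells that hold them.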
